A study of Mus musculus with 15 samples.

Results

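S100 genes encode small calcium-binding proteins, and 10 of them were followed here across cultured mouse lung cells: S100a1, S100a4, S100a6, S100a8, S100a9, S100a10, S100a11, S100a13, S100a14 and S100a16. The genes were selected by name, as all array probes other than controls that the scanner files assign to one of these 10 symbols, and no measured value took part. They were 10 of 22405 named genes and 13 of 55681 probes. S100a1, S100a4 and S100a16 had a pair of probes each and the other 7 genes 1 probe each. Of a pair, the probe brighter on average was used, and its partner is given beside it where the cell types are compared.

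The arrays held RNA from mouse alveolar type II (ATII) cells, surfactant-making epithelium of the alveolus, and from lung fibroblasts, which make matrix, both taken into primary culture. ATII cells received 1 mM BAPN (4 arrays) or vehicle (4 arrays), and fibroblasts 1 mM BAPN (3 arrays) or vehicle (4 arrays), for 24 h. BAPN (β-aminopropionitrile) is an irreversible inhibitor of lysyl oxidases, enzymes needed to cross-link collagen and elastin, and the vehicle was PBS. ATII cells formed a monolayer over 3 days with air above and medium below, whereas fibroblasts went through 3 or more passages and 24 h of starvation. Cell type therefore cannot be told apart from culture. Strain, genotype and age of the mice were not stated. ATII BAPN replicate 5 is a replacement array by its label, and fibroblast BAPN replicate 3 was not analysed here. No label ties replicates to separate mice or cultures, and p-values may reflect technical spread alone.

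S100 proteins carry calcium-binding loops of the EF-hand type, mostly pair into dimers and change shape when calcium binds, which opens a surface for partner proteins. Some act inside the cell on annexins, the cytoskeleton and enzymes, and some are released and bind cell-surface receptors such as Ager (RAGE, the receptor for advanced glycation end products) and Tlr4. Most genes of the family lie close together on chromosome 3 of the mouse. In the lung the family is known for calprotectin, the S100a8 and S100a9 pair of neutrophils and other myeloid cells, and for S100a4, a widely used label of fibroblasts.

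The following probe sequences of the array are shown because they read the coding part of 4 members, all on chromosome 3 in build mm9 and given 5′ to 3′ in the sense of the transcript. Capitals mark the 36 bases of an open frame that spell a calcium-binding loop of an EF hand, where a whole loop lay in the window. The S100a1 probe lies at chr3:90315191-90315250 on the minus strand. The S100a8 probe lies at chr3:90473778-90473837, the second S100a4 probe at chr3:90409734-90409793 and the S100a6 probe at chr3:90418160-90418219, each on the plus strand.
S100a1: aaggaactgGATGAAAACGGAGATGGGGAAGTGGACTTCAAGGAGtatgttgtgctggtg
S100a8: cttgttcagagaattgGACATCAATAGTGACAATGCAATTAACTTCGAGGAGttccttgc
S100a4: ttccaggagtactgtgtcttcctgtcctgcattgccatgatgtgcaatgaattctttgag
S100a6: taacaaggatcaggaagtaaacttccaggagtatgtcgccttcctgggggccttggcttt
The S100a1 and S100a8 windows each held a whole loop of 36 bases. The S100a4 and S100a6 windows held none in whole. S100a9, S100a10, S100a11, S100a13, S100a14 and S100a16 were read by other 60-base probes.

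Promoter windows of 3 members are shown as well, because S100a4 and S100a8 were far brighter in fibroblasts and S100a9, the partner gene of S100a8, was not well above background there. Each window is the 250 bases before the gene's start in RefSeq on build GRCm38.p6, and capitals mark matches to 5 motifs searched on both strands. TATAAA is the TATA box and GGGCGG the core of the Sp1 motif. TGANTCA is an AP-1 motif, TTGCNNAA a C/EBP motif and CACGTG an E-box. The S100a4 window is chr3:90603520-90603769 on the plus strand, the S100a8 window chr3:90668821-90669070 on the plus strand, and the S100a9 window chr3:90695722-90695971 on the minus strand.
S100a4: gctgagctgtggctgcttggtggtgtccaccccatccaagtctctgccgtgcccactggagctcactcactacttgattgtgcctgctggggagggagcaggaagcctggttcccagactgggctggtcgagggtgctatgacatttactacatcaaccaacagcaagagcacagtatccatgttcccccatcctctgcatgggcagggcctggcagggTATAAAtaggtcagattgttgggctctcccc
S100a8: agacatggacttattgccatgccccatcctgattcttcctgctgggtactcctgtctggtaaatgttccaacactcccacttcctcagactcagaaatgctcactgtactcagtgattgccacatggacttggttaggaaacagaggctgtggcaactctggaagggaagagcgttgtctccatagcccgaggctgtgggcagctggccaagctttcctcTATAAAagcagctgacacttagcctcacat
S100a9: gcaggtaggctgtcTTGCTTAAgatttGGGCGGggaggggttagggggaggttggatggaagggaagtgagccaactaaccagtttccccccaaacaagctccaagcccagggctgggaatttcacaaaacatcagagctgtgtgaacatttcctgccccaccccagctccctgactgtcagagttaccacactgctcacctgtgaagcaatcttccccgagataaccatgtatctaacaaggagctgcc
Among 9 windows of the 8 members with an entry, TATAAA stood in the S100a4 and S100a8 windows and in 12.4% of all 32851 promoter windows. TTGCNNAA stood in the S100a9 window alone and in 9.56% of all windows. TGANTCA stood in an S100a11 and an S100a16 window and in 6.75% of all, and CACGTG in the S100a11 window and in 6.02% of all. GGGCGG stood in an S100a9, an S100a11 and an S100a16 window, and in 32.7% of all windows. The 250 bases before S100a1 and before S100a13, which are read in opposite directions, overlapped by 104 bases at chr3:90514331-90514434. These matches describe letters and locate no binding.

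On the arrays, 65.2% to 71.2% of the spots that are not controls were well above background and 0 were saturated, and the number of arrays limits the precision. A level is a log2 processed intensity scaled so that 0 is the 75th percentile of its array, and levels of different probes cannot be set against each other. All values were tested with limma, and p-values were adjusted by Benjamini-Hochberg over all features tested, with a threshold of 0.05. The labels of the cells were checked against marker lists in the vehicle comparison. All 8 epithelial markers were higher in ATII cells than in fibroblasts. Among them Krt19 had a log2 difference of 4.67 ± 0.29 (SE, adjusted p = 5.35e-08). Of 11 ATII markers, 9 were tested, of which 7 were higher in ATII cells and 0 lower. Sftpa1 and Slc34a2 of that list were too dim to be tested. For the surfactant gene Sftpc the ATII arrays were at least 78.2-fold brighter, a bound used wherever every array of the dim group was below background: the dim mean is then replaced by the faintest signal that counted as well above background on each array, or by the probe's own if higher. Of 12 fibroblast markers, 5 were lower in ATII cells, such as Thy1 at -2.90 ± 0.16, and 0 were higher. Col1a1, the main fibrillar collagen gene, differed by 0.07 ± 0.16 (adjusted p = 0.81). Fibroblast arrays held macrophage and leukocyte markers: 14 of 17 were lower in vehicle ATII cells, such as Lyz2 at -4.20 ± 0.45, and 0 were higher. Of 9 airway and squamous markers tested, 7 were higher in vehicle ATII cells, Sprr1a and Ivl among them, and 0 were lower. Over all features 14.5% were higher and 16.9% lower. In bulk samples, fewer cells of a type and less RNA per cell cannot be told apart.

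S100 transcripts separated the cell types, in both directions and by very different amounts. In vehicle, S100a14, S100a10 and S100a11 were higher in ATII cells than in fibroblasts, while S100a8, S100a4, S100a13, S100a6 and S100a16 were lower. Among the 9 members tested, 8 passed, against 31.3% of all 32470 features (14.5% higher and 16.9% lower). The members' median log2 difference was -0.54, beside -0.13 over all features tested. On BAPN-treated arrays, 5 of 9 members passed, against 29.3% of all 32268 features (13.4% higher and 15.9% lower): S100a14 was higher in ATII cells, and S100a4, S100a8, S100a13 and S100a6 were lower. The members' median there was -0.26, beside 0.01 over all features. The 2 groups of arrays did not overlap for 8 of 9 members in vehicle, against 34.6% of features, and for 7 of 9 after BAPN, against 34.0%. All of these counts include S100a8, which was well above background on 0 of 4 vehicle and 1 of 4 BAPN ATII arrays. Its calls and separation thus set fibroblast signal against mostly background. Quantile scaling moved the median of all features in vehicle to -0.02 and turned no direction among the members that passed, but S100a11 lost its call (0.42, adjusted p = 0.0633). S100a9 was not tested, since it was well above background on 1 array alone.

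**Figure D1:**
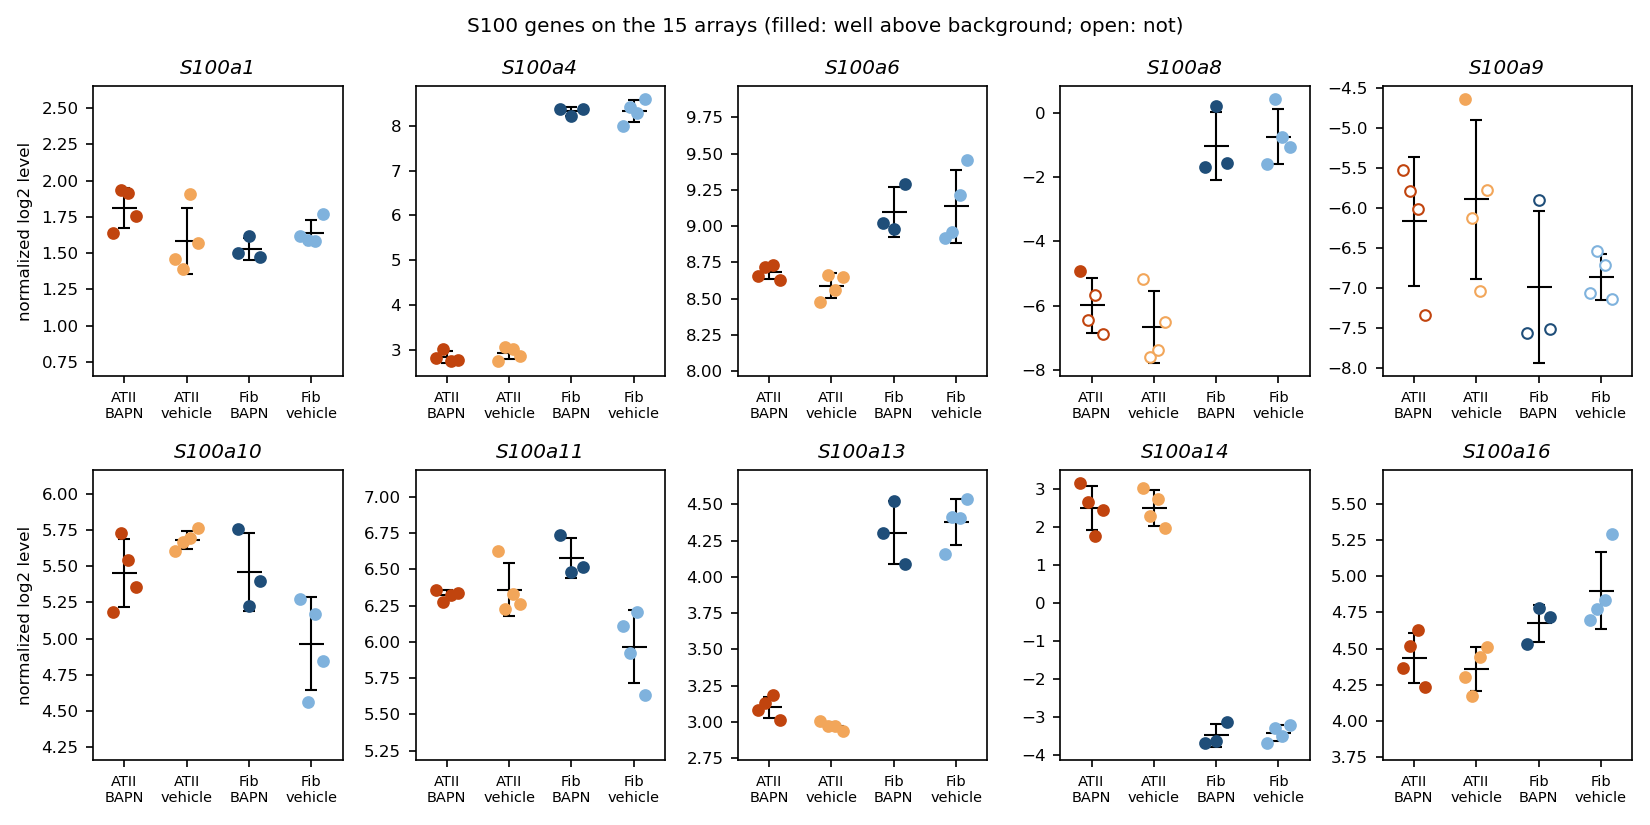
Normalized log2 level (y axis, 0 is the array's 75th percentile) of each of the 10 S100 genes on every array, by group on the x axis, for the probe that stands for the gene. Bars give mean and SD, filled points are well above background and open points are not. S100a4 sits near 2.9 on ATII arrays and near 8.3 on fibroblast arrays, S100a14 lies the other way round, and the S100a9 points are open on 14 of 15 arrays.

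S100a14, an epithelial S100 protein, had the largest rise of the members in ATII cells. Its levels were 3.01, 2.28, 2.73 and 1.96 on ATII vehicle arrays, against -3.69, -3.31, -3.51 and -3.22 on fibroblast vehicle arrays. All 8 were well above background and the groups lay far apart. The log2 difference was 5.93 ± 0.28 (SE, n = 4 each, limma adjusted p = 4.68e-09), a 60.9-fold higher level in ATII cells. After BAPN the levels were 3.15, 2.66, 1.76 and 2.43 in ATII cells and -3.69, -3.64 and -3.14 in fibroblasts. Replicate 1 was the brightest and replicate 4 the dimmest ATII array under both treatments. The BAPN-arm difference was 5.99 ± 0.30 (adjusted p = 1.2e-08), and within each slide of arrays the difference stayed between 5.14 and 6.47 over both arms. S100a14 lay 17.2 kb from S100a1 in the cluster, with its probe at chr3:90332439-90332498. The part of airway or squamous cells in its level was not tested.

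S100a4, a regulator of non-muscle myosin and cell movement, was far lower in ATII cells under both treatments. ATII vehicle arrays had levels of 2.76, 3.06, 3.03 and 2.87, against 8.0, 8.42, 8.29 and 8.59 on fibroblast vehicle arrays. ATII arrays clustered tightly and no fibroblast array came near them. ATII cells differed from fibroblasts by -5.39 ± 0.13 (log2, SE, adjusted p = 1.72e-11), a 42.0-fold lower level in ATII cells. With BAPN the levels were 2.81, 3.03, 2.76 and 2.77 in ATII cells and 8.36, 8.21 and 8.38 in fibroblasts, a difference of -5.48 ± 0.14 (adjusted p = 3.84e-11). The second S100a4 probe gave -5.61 ± 0.15 in vehicle and -5.80 ± 0.16 after BAPN. S100a4 was well above background on every ATII array. A log2 difference over 5 in size that passed was found for 0.567% of features in vehicle and for 0.607% after BAPN. S100a4 and S100a14 were past that size under both treatments. The part of macrophages and leukocytes in the S100a4 level of the fibroblast arrays was not tested.

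S100a8, a subunit of calprotectin, was detected in fibroblasts and mostly not in ATII cells. Its levels on ATII vehicle arrays were -5.16, -7.60, -7.39 and -6.52, against -1.59, 0.42, -0.74 and -1.07 on fibroblast vehicle arrays. None of those ATII arrays was well above background and all 4 fibroblast arrays were. ATII cells were at least 28.9-fold lower (fitted log2 difference -5.92 ± 0.63, adjusted p = 8.53e-06). In vehicle the gene was tested through its fibroblast arrays alone, so that fit uses background signal in ATII cells. With BAPN the ATII levels were -4.93, -6.45, -5.68 and -6.89, of which replicate 1 alone was above background, and the fibroblast levels were -1.70, 0.20 and -1.57. The fitted log2 difference with BAPN was -4.96 ± 0.68 (adjusted p = 9.6e-05). It too uses background signal in ATII cells, on every array but replicate 1. Fibroblast replicate 2 was the brightest array for S100a8 under both treatments, and the SD of 1.06 in BAPN and 0.85 in vehicle fibroblasts was wide. With another background correction (normexp) the fitted differences were -2.73 in vehicle and -2.30 after BAPN, and both still passed.

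S100a9, the other subunit of calprotectin, was not well above background on the fibroblast arrays where S100a8 was. Its levels ran from -7.34 to -5.53 in BAPN ATII cells, from -7.03 to -4.64 in vehicle ATII cells, from -7.57 to -5.90 in BAPN fibroblasts and from -7.14 to -6.54 in vehicle fibroblasts. Of all 15 arrays, ATII vehicle replicate 1 at -4.64 alone was well above background. S100a9 thus has only a bound in fibroblasts. Its probe lay 181 kb from that of S100a1 and the S100a8 probe 159 kb.

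Markers of macrophages and leukocytes were, like S100a8, mostly higher on fibroblast arrays, while those of neutrophils were mixed. The summed linear level of the 17 macrophage and leukocyte markers ranged from 36.5 to 45.4 in BAPN ATII cells, from 31.9 to 52.1 in vehicle ATII cells, from 99.3 to 115 in BAPN fibroblasts and from 88.7 to 116 in vehicle fibroblasts. The sum was highest on replicate 2 in both fibroblast groups, the array where S100a8 was brightest too. Below it the orders were mixed. In vehicle fibroblasts replicate 1 was lowest in both. Replicate 4 there summed higher than replicate 3 (104 against 103) with a lower S100a8 level (-1.07 against -0.74). In BAPN fibroblasts replicate 1 summed higher than replicate 4 (111 against 99.3) with a lower S100a8 level (-1.70 against -1.57). Of the 12 neutrophil markers, 4 were above background on no fibroblast array, Cxcr2, Mmp9 and Cd177 among them, while Ly6g, Mpo and Elane were above background on all 15 arrays with no difference that passed. Of 8 neutrophil markers tested, 2 were higher and 2 lower in ATII cells in vehicle, and likewise after BAPN. The neutrophil sum ranged from 38.6 to 53.2 in BAPN ATII cells, 42.2 to 48.5 in vehicle ATII cells, 66.7 to 104 in BAPN fibroblasts and 58.3 to 78.2 in vehicle fibroblasts, and replicate 2 was not the highest there in either fibroblast group. The part of these cells in the S100a8 level was not tested.

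S100a13 is a partner in the release of Fgf1 and Il1a, secreted proteins that lack a signal sequence. Its levels were 3.01, 2.97, 2.97 and 2.94 in vehicle ATII cells, against 4.16, 4.41, 4.40 and 4.53 in vehicle fibroblasts. The ATII arrays spanned a narrow range and the groups did not overlap. In vehicle the difference came to -1.40 ± 0.11 (adjusted p = 5.07e-07), 2.65-fold lower in ATII cells. After BAPN the levels were 3.08, 3.13, 3.18 and 3.01 in ATII cells and 4.30, 4.52 and 4.09 in fibroblasts, again apart, and the difference was -1.20 ± 0.12 (adjusted p = 5.24e-06). The cargo genes went the other way. Fgf1 was 2.42 ± 0.22 higher in vehicle ATII cells (log2, adjusted p = 2.2e-06). Il1a was well above background on 4 of 4 vehicle ATII arrays and 0 of 4 vehicle fibroblast arrays. It was tested through its ATII arrays alone, so only a bound is given, at least 1.52-fold higher in ATII cells.

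S100a10 (p11) binds annexin A2, encoded by Anxa2, and the complex docks plasminogen and its activators at the cell surface. Its levels in vehicle were 5.61, 5.66, 5.69 and 5.76 in ATII cells, against 5.27, 4.57, 5.17 and 4.85 in fibroblasts. All ATII arrays lay above all fibroblast arrays. The log2 difference was 0.72 ± 0.17 (adjusted p = 0.00535). On BAPN arrays the levels were 5.18, 5.73, 5.54 and 5.35 in ATII cells and 5.76, 5.22 and 5.4 in fibroblasts. Those groups overlapped, with a difference of -0.01 ± 0.18 (adjusted p = 0.98). The vehicle and BAPN differences were not shown to differ: their difference was -0.72 ± 0.25 (adjusted p = 0.25). Anxa2 itself differed by -0.19 ± 0.17 in vehicle (adjusted p = 0.45).

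S100a11 pairs with annexin A1, encoded by Anxa1. Vehicle ATII cells had levels of 6.63, 6.23, 6.33 and 6.26, against 6.11, 5.92, 6.21 and 5.63 in vehicle fibroblasts. The groups were next to each other without overlap. The log2 difference of 0.39 ± 0.13 (adjusted p = 0.0371) passed, but with the replicate number as a block its adjusted p was 0.0646. The call was also lost without fibroblast replicate 2 (0.38, adjusted p = 0.0809) or 4 (0.28, adjusted p = 0.0967) and without ATII replicate 1, 3 or 4, and held under 7 of 20 alternatives in all. After BAPN the difference was -0.26 ± 0.14 (adjusted p = 0.21). Besides its RefSeq transcript the S100a11 probe lists 2 predicted transcripts, so signal from a near-identical copy cannot be told apart. Anxa1 differed by -0.00 ± 0.16 in vehicle.

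S100a6 (calcyclin), which binds the Cacybp protein, was bright in both cell types. Vehicle ATII arrays had levels of 8.48, 8.67, 8.56 and 8.65, against 8.92, 8.96, 9.22 and 9.46 in fibroblasts. No ATII array reached the lowest fibroblast array. After BAPN the levels were 8.66, 8.72, 8.74 and 8.63 in ATII cells and 9.02, 8.98 and 9.29 in fibroblasts, also without overlap. The log2 difference was -0.55 ± 0.12 (adjusted p = 0.00402) in vehicle and -0.41 ± 0.13 (adjusted p = 0.0330) after BAPN. The BAPN call held under 6 of 19 alternatives and was lost without fibroblast replicate 4 (-0.32, adjusted p = 0.147) and without ATII replicate 1, 3 or 5. With the replicate number as a block the BAPN-arm difference was -0.46 (adjusted p = 0.145). Cacybp was 0.51 ± 0.12 higher in vehicle ATII cells (log2, adjusted p = 0.0055).

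S100a16 had levels of 4.31, 4.17, 4.44 and 4.51 in vehicle ATII cells, against 4.70, 4.78, 4.84 and 5.29 in vehicle fibroblasts. All fibroblast arrays were higher, replicate 4 most of all. ATII minus fibroblast was -0.54 ± 0.14 (log2, adjusted p = 0.0101), and the second probe gave -0.37 ± 0.13 (adjusted p = 0.040). With the spot position correction the adjusted p was 0.0575. After BAPN the levels were 4.37, 4.52, 4.63 and 4.24 in ATII cells and 4.53, 4.78 and 4.72 in fibroblasts, a difference of -0.24 ± 0.15 (adjusted p = 0.28), with overlapping groups. The second probe gave -0.37 ± 0.14 there (adjusted p = 0.062), without overlap.

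S100a1, known best from heart and skeletal muscle, did not pass in either arm. Its levels were 1.46, 1.39, 1.90 and 1.57 in vehicle ATII cells and 1.62, 1.59, 1.58 and 1.77 in vehicle fibroblasts. The groups overlapped. ATII minus fibroblast was -0.06 (log2, 95% interval -0.32 to 0.20, adjusted p = 0.77). After BAPN the levels were 1.64, 1.93, 1.92 and 1.76 in ATII cells and 1.5, 1.62 and 1.47 in fibroblasts, without overlap, but the difference of 0.28 ± 0.13 did not pass (adjusted p = 0.13). The second S100a1 probe gave -0.06 ± 0.15 in vehicle and 0.41 ± 0.16 after BAPN (adjusted p = 0.064), where its groups overlapped.

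**Figure D2:**
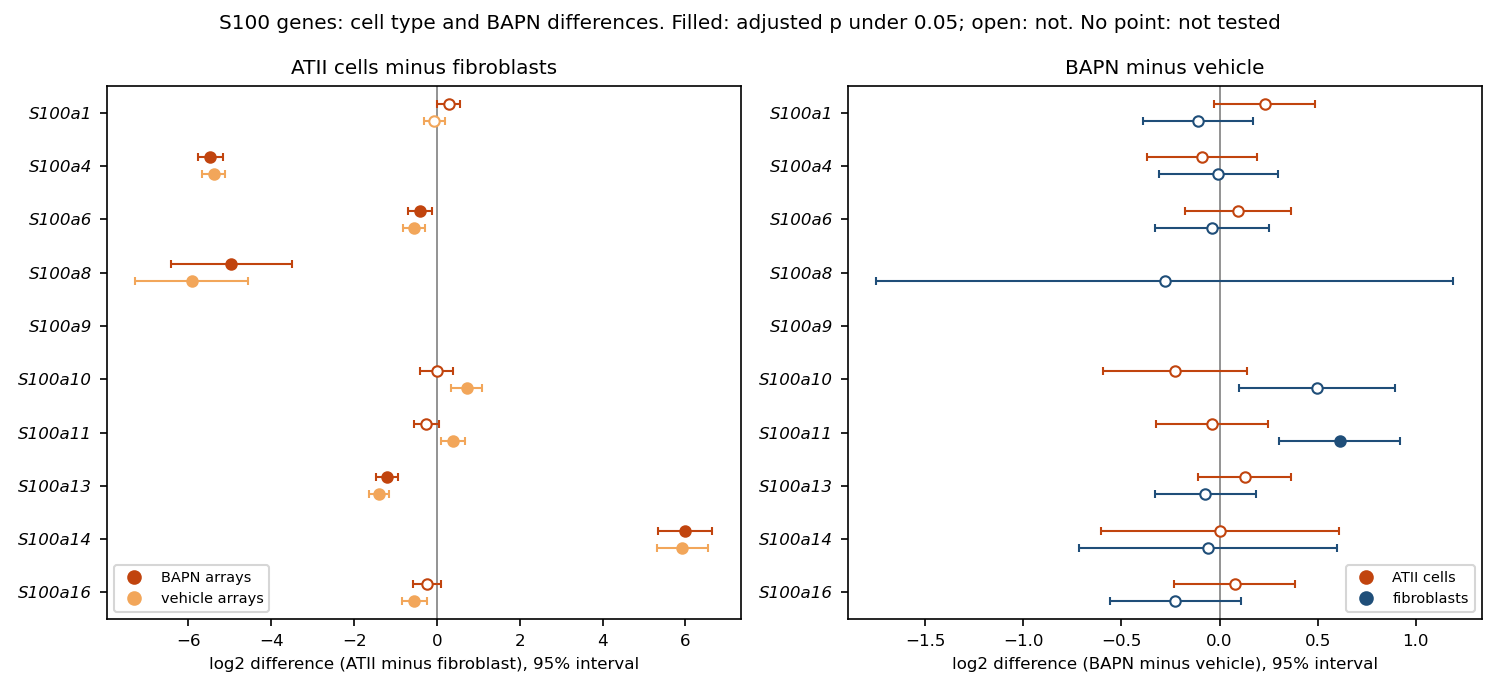
Log2 difference (x axis) and 95% interval for each S100 gene (y axis), ATII cells minus fibroblasts on the left and BAPN minus vehicle on the right. Filled points had an adjusted p under 0.05. The fitted cell type differences of S100a4, S100a8 and S100a14 are near 5 to 6 in size in both arms, whereas all BAPN differences are under 1 in size and S100a11 in fibroblasts alone is filled.

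The arrays came from 2 slides, each of which held every group. In vehicle the ATII minus fibroblast difference of S100a4 was -5.25 on slide 1 and -5.54 on slide 2, that of S100a8, as fitted, -5.11 and -6.73, and that of S100a13 -1.29 and -1.52. All of these passed within each slide. S100a10 differed by 0.43 on slide 1 (adjusted p = 0.172) and by 1.00 on slide 2 (adjusted p = 0.0218). S100a11 passed in neither slide alone, at 0.32 and 0.47, nor did S100a16, at -0.39 and -0.69. S100a6 differed by -0.55 on each, with an adjusted p of 0.0356 on slide 1 and 0.159 on slide 2. After BAPN, where slide 2 held 1 ATII array, S100a13 differed by -1.12 there (adjusted p = 0.0540).

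Along chromosome 3, S100a14 differed in direction from the members on either side of it. In mm9, 8 members lay within 182 kb, from the second S100a1 probe at chr3:90314959-90315018 to the S100a9 probe at chr3:90496573-90496632. S100a11, at chr3:93330022-93330081, and S100a10, at chr3:93368437-93368496, lay within 38.5 kb of each other, 2833 kb beyond S100a9. S100a13, at chr3:90328442-90328501, was lower in ATII cells and S100a14, the next probe along, was higher. S100a16, at chr3:90346875-90346934, was lower again. Between S100a16 and S100a8, every S100 gene that passed was lower in ATII cells in vehicle. They were S100a3 at -1.55 ± 0.20, S100a4, S100a6, S100a8 and S100a7a, while S100a5 did not pass (-0.44 ± 0.24). S100a7a and S100a8 were tested through their fibroblast arrays alone, so their direction was set by the filter and adds nothing to this pattern. For S100a7a only a bound is given, at least 4.56-fold lower. Past the cluster lie the genes of the cornified envelope, the tough outer layer of skin cells. Lce1g of that group was above background on 1 of 4 vehicle ATII arrays and 4 of 4 fibroblast arrays, with a fitted difference of -6.87 ± 0.52 (adjusted p = 3.31e-07). Lor, Sprr1a and Ivl of the same group were higher in ATII cells, at 2.03 ± 0.15, 1.68 ± 0.45 and 1.49 ± 0.40.

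**Figure D3:**
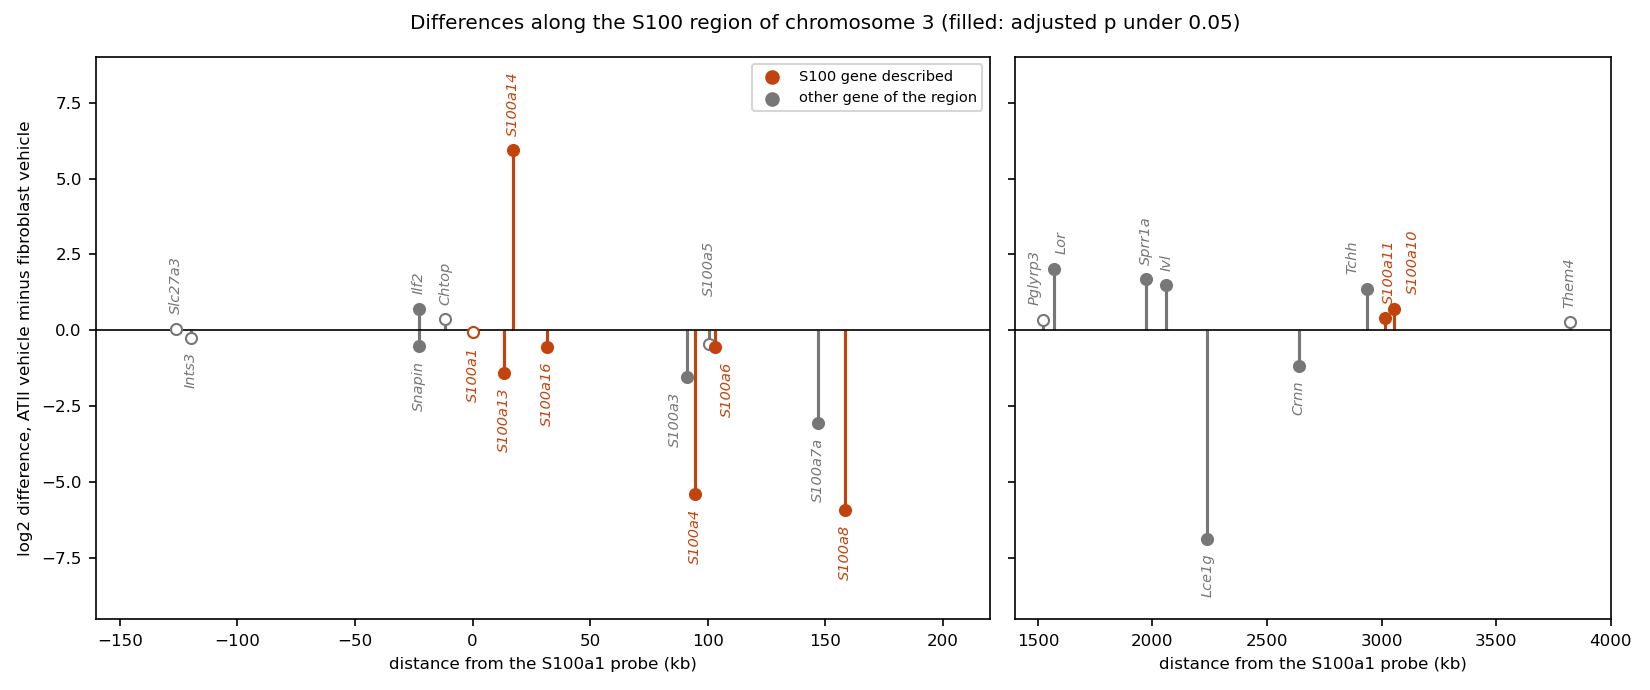
Log2 difference between vehicle ATII cells and vehicle fibroblasts (y axis) against distance from the S100a1 probe in kb (x axis) for genes of the S100 region of chromosome 3 that were tested, with S100 members in orange. Filled points had an adjusted p under 0.05. S100a14, at 17.2 kb, points up between S100a13 and S100a16, which point down, and S100a4 and S100a8 reach furthest down in the left panel.

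Of the other S100 and fused S100-type genes, 14 were listed, 8 were tested in the vehicle comparison, and 2 were higher and 4 lower in ATII cells, against 14.5% and 16.9% of all features. S100b, a glial S100 protein, was well above background on 2 of 4 vehicle ATII arrays and 4 of 4 fibroblast arrays, with a fitted log2 difference of -2.74 ± 0.27 (adjusted p = 4.46e-06). Tchh, a fused S100-type gene of hair, was higher in ATII cells at 1.38 ± 0.26, as was S100pbp, an S100-binding protein, at 0.73 ± 0.13. Crnn was lower at -1.16 ± 0.42 (adjusted p = 0.048).

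Of the partner genes of S100 proteins, 11 of 36 tested were higher and 9 lower in vehicle ATII cells, against 14.5% and 16.9% of all features. Among 10 receptors of released S100 proteins, Ager, Alcam and Cd14 were higher in ATII cells and Cd36, Tlr4 and Nptn were lower. Ager, a receptor of S100a8, S100a9 and S100a4 that is typical of alveolar type I cells, differed by 4.54 ± 0.51 (adjusted p = 1.5e-05) and was above background on 2 of 4 vehicle fibroblast arrays. Alcam, an adhesion molecule of the immunoglobulin family, differed by 2.11 ± 0.18. Tlr4, the endotoxin receptor that calprotectin can also engage, was lower in ATII cells at -0.74 ± 0.19 (adjusted p = 0.0099).

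Among 6 genes of plasminogen activation, Plat, the tissue-type activator, was 2.45 ± 0.30 higher in vehicle ATII cells (log2). Plau, the urokinase-type activator, was lower at -1.07 ± 0.18, and its receptor Plaur at -0.31 ± 0.11 (adjusted p = 0.046). Of 9 annexins and scaffolds, Anxa4 at 0.80 ± 0.12 and Hltf at 0.60 ± 0.11 were higher and Ahnak, a giant scaffold bound by the S100a10 complex, was lower at -1.05 ± 0.14, as was Dlc1 at -0.97 ± 0.17. Of the 11 intracellular targets tested, 5 were higher, with Il1a, Fgf1, Iqgap1 (0.70 ± 0.10) and Trp53 (0.52 ± 0.13) among them. Mdm2 (-0.77 ± 0.11) and Atp2a2 (-0.55 ± 0.12) were lower. Myh9, the non-muscle myosin heavy chain that S100a4 binds, differed by 0.12 ± 0.11 in vehicle (adjusted p = 0.46), beside the -5.39 of S100a4.

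**Figure D4:**
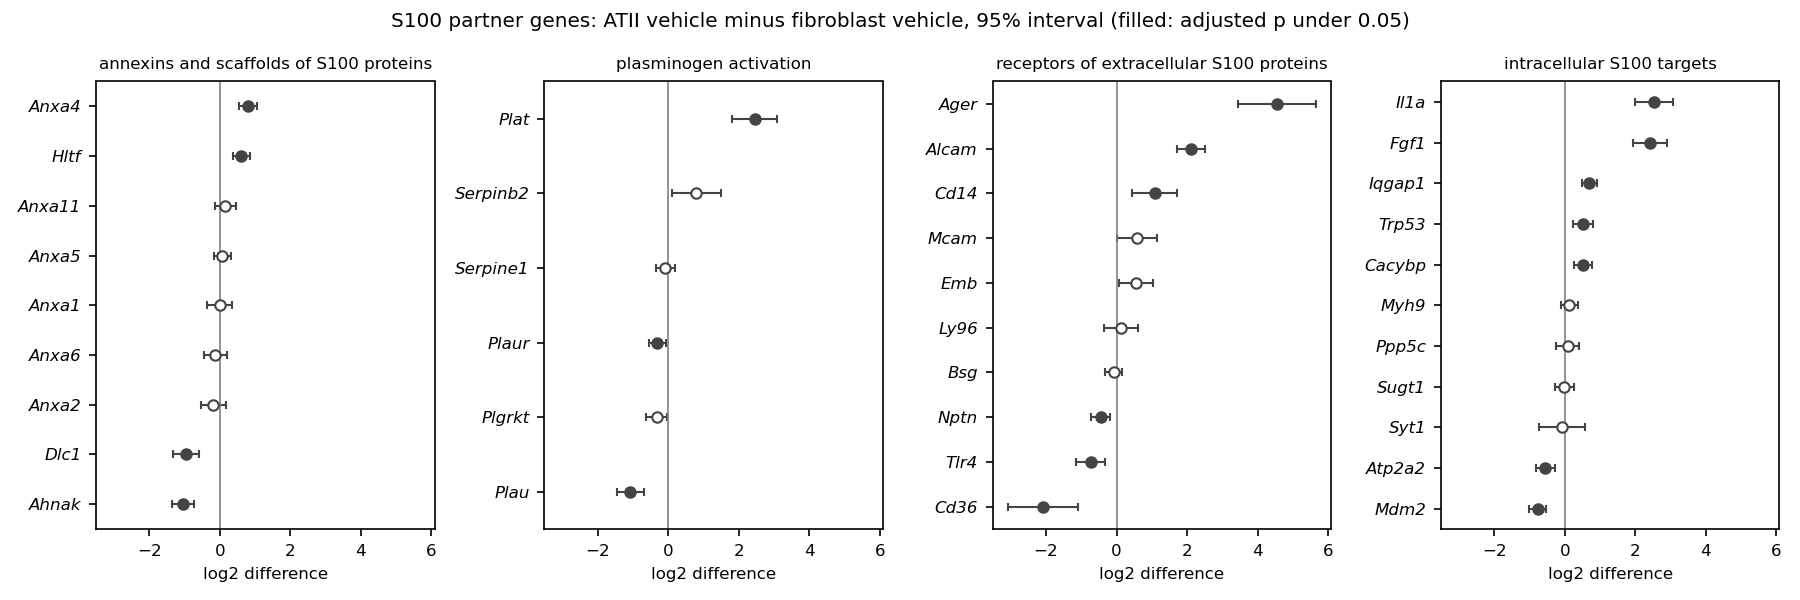
Log2 difference with 95% interval (x axis) between vehicle ATII cells and vehicle fibroblasts for the partner genes of S100 proteins (y axis), in 4 lists. Filled points had an adjusted p under 0.05. Ager and Cd36 mark the ends of the receptor list, at 4.54 and -2.08, and Anxa1 and Anxa2 lie near 0.

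Most S100 transcripts showed no BAPN difference that passed. In fibroblasts 1 of 9 members passed, S100a11, which rose, against 13.4% of all 32255 features (2.36% higher and 11.1% lower). That is near the share over all features. The members' median log2 difference was -0.06, beside 0.02 over all features. In ATII cells 0 of 8 members passed with limma, against 0.00% of all 32045 features. At an unadjusted p under 0.05 the count was 0 of 8 members and 3335 of all features, and with the authors' deposited log2 values no feature passed. The members' median was 0.04 there, beside -0.00 over all features. All 8 members tested in ATII cells, and 8 of 9 in fibroblasts, had a 95% interval inside a 2-fold change in either direction, as had 69.9% and 60.7% of all features in those comparisons. The exception was S100a8 in fibroblasts, with -0.28 (95% interval -1.75 to 1.19).

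S100a11 was the member that passed in fibroblasts. Its levels were 6.74, 6.48 and 6.52 in BAPN fibroblasts, against 6.11, 5.92, 6.21 and 5.63 in vehicle fibroblasts. All BAPN arrays lay above all vehicle arrays, which held for 24.0% of all features in one direction or the other. The log2 difference was 0.61 ± 0.14 (adjusted p = 0.0177), a 1.53-fold rise. In ATII cells the levels were 6.36, 6.27, 6.33 and 6.34 with BAPN and 6.63, 6.23, 6.33 and 6.26 with vehicle, a difference of -0.04 ± 0.13 (adjusted p = 0.93). The effects in ATII cells and fibroblasts were not shown to differ by the test of the difference itself, -0.65 ± 0.20 (adjusted p = 0.21).

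S100a10, its neighbour on the chromosome, had levels of 5.76, 5.22 and 5.4 in BAPN fibroblasts, against 5.27, 4.57, 5.17 and 4.85 in vehicle fibroblasts. BAPN replicate 2 and vehicle replicate 1 overlapped. The log2 difference of 0.50 ± 0.18 did not pass (adjusted p = 0.0939). In ATII cells the difference was -0.23 ± 0.17 (adjusted p = 0.54). For the difference between the effects, 2 of 9 members, S100a10 and S100a11, had an unadjusted p under 0.05 and 0 passed adjusted with limma, against 0.00% of all 34287 features, of which 4723 had an unadjusted p under 0.05.

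The S100a11 call in fibroblasts was sensitive to the processing. It passed under 12 of 19 alternatives, with a log2 difference between 0.42 and 0.77 throughout. Without BAPN replicate 2 it was 0.66 with an adjusted p of 0.0511, and it was 0.51 under quantile scaling (adjusted p = 0.0711) and with the authors' deposited log2 values (adjusted p = 0.0707). Within slide 1, which held 1 BAPN and 2 vehicle fibroblast arrays, so that the lone array is assumed to vary like the other groups, the difference was 0.58 (adjusted p = 0.10). Within slide 2, with 2 of each, it was 0.72 (adjusted p = 0.0320), and with the slide as a block 0.65 (adjusted p = 0.0108). With the replicate number as a block it was 0.69 (adjusted p = 0.123).

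Position on the array moved with the fibroblast BAPN calls. In spot columns above 82 of 164, 25.3% of features passed, and in columns up to 82 it was 1.51%. Features that passed as higher, the direction of S100a11, made up 4.09% above column 82 and 0.622% up to it. The median log2 difference was -0.07 above column 82 and 0.08 up to it. S100a11 was in column 158, S100a10 in column 152, the main S100a1 spot in column 163, S100a14 in column 108 and the second S100a16 probe in column 147. After each array was corrected for the local signal around a spot, S100a11 differed by 0.77 (adjusted p = 0.0151). S100a10 differed by 0.67 (adjusted p = 0.0394), and both were larger than without the correction. The correction also raised the calls over all 32255 features, from 4331 to 5267, and those higher from 762 to 1748. The part of position in the S100a10 and S100a11 values was not tested.

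**Figure D5:**
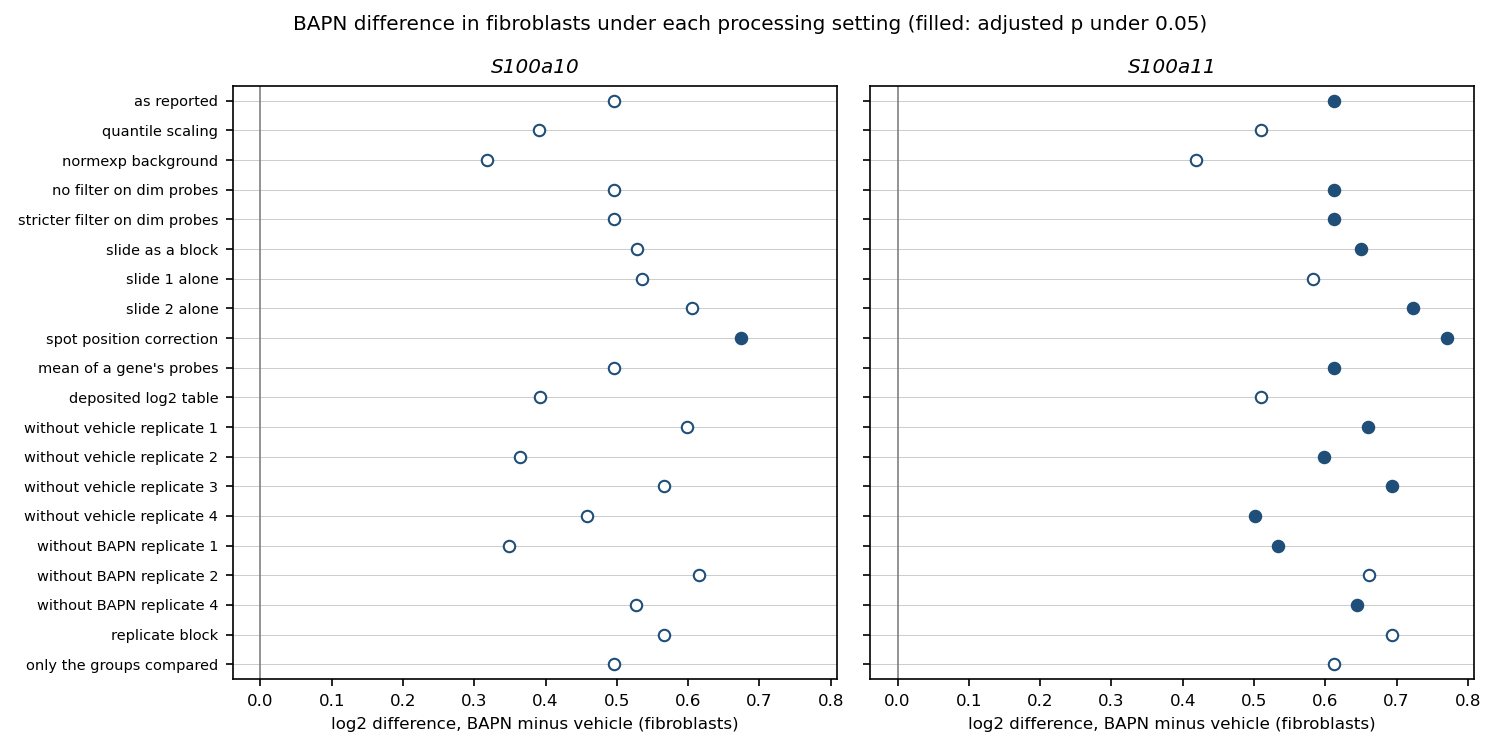
Log2 difference between BAPN and vehicle fibroblasts (x axis) for S100a10 and S100a11 under the reported processing and each alternative (y axis). Filled points had an adjusted p under 0.05. All points lie right of 0, with 12 of 19 alternatives filled for S100a11 and 1 of 19, the spot position correction, for S100a10.

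None of the remaining members tested passed with BAPN. In fibroblasts S100a4 differed by -0.01 ± 0.14, S100a6 by -0.04 ± 0.13, S100a13 by -0.07 ± 0.12, S100a14 by -0.06 ± 0.31, S100a1 by -0.11 ± 0.13 and S100a16 by -0.22 ± 0.15 (log2, SE). In ATII cells S100a1 differed by 0.23 ± 0.12, S100a13 by 0.13 ± 0.11, S100a6 by 0.09 ± 0.12, S100a16 by 0.08 ± 0.14, S100a14 by 0.00 ± 0.28 and S100a4 by -0.09 ± 0.13. For S100a13 in ATII cells all BAPN arrays were above all vehicle arrays, by less than the rounding for replicate 5, a separation found for 9.10% of features there. Its adjusted p was 0.59. S100a8 and S100a9 were not tested in ATII cells.

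Among the partner genes, Mcam, an adhesion molecule and receptor of S100a8 and S100a9, rose by 1.00 ± 0.29 in fibroblasts (adjusted p = 0.037), as the 1 of 35 tested that passed, against 13.4% of all features. That call was lost without vehicle replicate 2 or 3 and without BAPN replicate 1 or 4. In ATII cells 0 of 36 passed with limma, and 3 of 36 had an unadjusted p under 0.05, against 10.4% of all features. In fibroblasts Anxa2 differed by 0.03 ± 0.18, Anxa1 by 0.10 ± 0.18 and Myh9 by 0.37 ± 0.12 (adjusted p = 0.057).

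For S100a4, S100a8 and S100a14, the genes with the most similar pattern were sought among 18387 named genes by the root mean square difference over the 15 arrays, after each gene was centred on its mean. S100a4 was followed most closely by Slc1a6, a glutamate transporter (0.27 log2 units), Cemip, which takes part in hyaluronan breakdown (0.35), and Vegfd, a lymphatic growth factor (0.36). For S100a8 they were Crct1 (0.57), which lies on chromosome 3 as well, Pf4, a chemokine of platelets and macrophages (0.59), and 1700012B09Rik (0.63). S100a8 was well above background on 1 of 8 ATII arrays, so its distances rest largely on background signal there. For S100a14 they were Elf3, an epithelial transcription factor (0.25), Gm7850 (0.26) and Cldn7, a tight junction protein (0.27). These distances describe likeness on these arrays, most of which is the contrast between the cell types.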

How the data were processed

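The deposited scanner output of each array gives spot intensity from Agilent Feature Extraction 10.7.3.1 in one colour, per the file headers; the processed signal is background-subtracted and spatially detrended, with no scaling across arrays. The authors' series table gives log2 values whose sorted columns are identical, as after quantile normalization, and was used as an alternative.

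Processed intensity was converted to log2 and centred on the 75th percentile of non-control probes. Spots with an outlier mark were dropped and repeat spots averaged. Each gene was read from its brightest probe on average, and unnamed probes stood alone. Testing required at least 3 arrays well above background among the groups in the contrast. limma 3.58.1 (R 4.3.3) modelled 4 group means over 15 arrays with 11 residual degrees of freedom; p-values are two-sided, with Benjamini-Hochberg adjustment across every feature tested. SE comes from the model and SD from the arrays. Tables and plots were made with Python 3.11.15, pandas 2.3.3 and matplotlib 3.10.9. RefSeq promoters (GRCm38.p6) matched 8 of 10 members by symbol.

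On simulated data with 32255 features, 57.1% of changes of 1 log2 unit and 89.0% of 2 log2 units were recovered for BAPN in fibroblasts. Members, gene lists and tests were chosen with earlier results of these data known. All members are named, with up to 4 passing genes per partner list and comparison by size, and Anxa1, Anxa2, Ager, Tlr4, Cacybp and Myh9 always. Alternatives covered scaling, background correction, filters, slides, a spot position correction, the choice of probe, a replicate block and leaving out each array. The percentile over probes, moderation over tested features and a position correction that keeps each array's median were settled after counts had been seen. Residuals of same-numbered ATII and fibroblast arrays correlated at 0.23 to 0.33 in 4 vehicle pairs and at 0.16 to 0.23 in 2 BAPN pairs. The blocked value is therefore printed where it changed an S100 call. Each such pair shared a slide. Differently numbered arrays of a shared slide correlated at 0.19 to 0.31 in vehicle and 0.27 to 0.35 after BAPN, so number and slide cannot be told apart in this check.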

Additional observations from a re-analysis of the deposited data

Results flagged for a closer look

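S100a1 was singled out in vehicle fibroblasts because 1 array stood apart from the other 3. Its level was 1.77 on replicate 4, against 1.58 to 1.62 on the others, so that the gap to the next array was 0.831 of the whole range. Chance flags about 1 in 20 groups of 4 in this way. Without that array the vehicle difference between ATII cells and fibroblasts was -0.02 on the log2 scale, beside -0.06 with it.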

How the results depend on the processing

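Of 940 values of single S100 genes under the alternatives, 838 kept direction and side of the threshold, 39 lost their call, 3 gained one and 60 changed sign. The sign changes touched 14 of 44 results, and 0 of the changed values passed; the largest of them was 0.37 in size. S100a4, S100a8 and S100a14 passed under every alternative run in both cell type comparisons. For S100a8 the ATII side was mostly background. Its fitted difference ranged from -6.73 to -2.73 in vehicle and from -5.31 to -2.30 after BAPN. Where a call or sign changed, the cause was not tested.

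The 1 S100 gene that passed with BAPN in fibroblasts became 0 under quantile scaling, normexp, slide 1 alone, the deposited log2 values, the replicate block and a fit on only the groups compared, and 2 under the spot position correction. Leaving out 1 array gave 0 to 1. The 8 in vehicle ATII cells against fibroblasts became 5 within slide 1, 5 within slide 2 and 6 under the position correction (without S100a11 and S100a16). They became 7 (without S100a11) under quantile scaling, no filter, the deposited values, the replicate block and only the groups compared. The same held for 5 of the 8 fits that left out an array. Of the 5 after BAPN, S100a6 held its call under 6 of 19 alternatives. The call was lost under quantile scaling, no filter, the slide block, position correction, deposited values, the replicate block and only the groups compared. Within slide 2, with 1 ATII BAPN array, S100a13 differed by -1.12 and S100a6 by -0.40. For partner genes with BAPN in fibroblasts, the count of 1 became 0 under quantile scaling, no filter, slide 2 alone, the mean of probes, the deposited log2 values, the replicate block and only the groups compared, and 4 under the position correction; leaving out 1 array gave 0 to 1. Calls were gained by S100a10 with BAPN in fibroblasts (0.67) and S100a1 between BAPN-treated cell types (0.44) under the position correction, and by S100a11 between BAPN-treated cell types with the slide as a block (-0.35). In vehicle the replicate block ended no S100 call but that of S100a11. Same-numbered BAPN and vehicle arrays correlated at -0.084 to 0.10 in fibroblasts and -0.15 to 0.23 in ATII cells, so those numbers were not taken as pairs.

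Signs changed as follows, in log2 units. With BAPN in fibroblasts, S100a4 gave 0.088 under normexp and 0.22 in slide 1, S100a13 0.024 in slide 1, S100a14 0.11 under quantile scaling, 0.11 with the deposited values and 0.14 under the position correction, and S100a16 0.0094 by its other probe. With BAPN in ATII cells, S100a6 gave -0.023 under quantile scaling, -0.025 with the deposited values and -0.17 under the position correction, and S100a11 0.081 in slide 2 and 0.039 under the position correction. S100a14 there gave -0.045 under normexp, -0.067 with the slide block, -0.12 in slide 1, -0.37 in slide 2 and -0.045 with the replicate block, and S100a16 -0.0019 in slide 1. For the difference of the BAPN effects, S100a4 gave 0.014 under quantile scaling, 0.012 with the deposited values and 0.0018 under the position correction. S100a14 gave -0.10 in those 3, -0.056 with the slide block, -0.029 in slide 1 and -0.24 in slide 2. In vehicle, S100a1 gave 0.084 in slide 1 and 0.031 under the position correction. After BAPN, S100a10 gave 0.054 under quantile scaling, 0.048 with the deposited values, 0.10 under normexp and 0.23 in slide 2.

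Leaving out 1 array at a time, S100a1 ran from -0.17 to 0.0038 in vehicle and S100a10 from -0.13 to 0.14 between BAPN-treated cell types. With BAPN in ATII cells S100a11 ran from -0.081 to 0.051 and S100a14 from -0.21 to 0.25. With BAPN in fibroblasts S100a4 ran from -0.12 to 0.083, S100a6 from -0.14 to 0.067, S100a8 from -0.89 to 0.11, S100a13 from -0.18 to 0.036 and S100a14 from -0.23 to 0.044. For the difference of effects S100a4 ran from -0.17 to 0.026 and S100a14 from -0.16 to 0.31.

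Over all features, 4331 passed with BAPN in fibroblasts, against 448 in slide 1, 7188 in slide 2, 2356 in only the groups compared, 0 under the replicate block and 1009 to 4302 with 1 array left out. With BAPN in ATII cells 0 passed, against 5648 in slide 2, where 1 ATII BAPN array stood alone and was assumed to vary like the other groups, with 3 residual degrees of freedom. The difference of effects gave 0, against 94 in slide 1 and 0 to 15 with 1 array left out. The cell types gave 10173 in vehicle, against 5122 in slide 2, and 9445 after BAPN, against 5199 under the replicate block and 2533 in slide 2. S100a8 in ATII cells and S100a9 in most arrays lie at background, which limits both to bounds.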
